A study of Homo sapiens with 24 samples.

Results

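C4-2B cells were compared with LNCaP cells, both kept with the solvent DMSO for 3 days, across every gene that the arrays detected. The comparison used the 3 C4-2B DMSO arrays and the 3 LNCaP DMSO arrays, 6 of the 24 arrays of the series, and did not pool them with the control siRNA arrays. A gene entered if a probe named for it alone was detected (detection p-value under 0.05) on 3 or more of the 24 arrays, and 13789 genes did. LNCaP is an androgen-sensitive prostate cancer line, labelled as obtained from ATCC, and C4-2B is a derivative of it that grows with little androgen. The label of C4-2B gives a lymph node metastasis as its origin. All cultures were grown in RPMI medium with fetal bovine serum (10%) and PS (1%). The other groups of each line, with 3 arrays each, received EPZ6438 (tazemetostat, an inhibitor of the methyltransferase EZH2) at 1 µM, or were transfected with siControl or with siEZH2, which targets EZH2, for 3 days. The replicates are numbered but nothing calls them separate cultures, so a p-value here reflects array-to-array spread that may be technical. Each side of the comparison is a single cell line.

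Prostate luminal cells depend on androgen, which turns on secretory genes such as the kallikreins. Androgen is removed in these cells by UGT2B enzymes, which attach glucuronic acid to it. Under a shortage of amino acids or protein folding stress, cells of all types slow translation and make more of the transcription factor ATF4, which raises genes for amino acid synthesis, uptake and tRNA charging, a programme called the integrated stress response.

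Between 19326 and 20933 of 47311 probes were detected on each of the 6 arrays, and precision is limited by having 3 arrays per line. The luminal genes FOLH1, HOXB13, KLK2, KLK3, KRT8, KRT18 and TMPRSS2 were detected on every DMSO array of both lines. The basal keratins KRT5, KRT14 and KRT15 and the neuroendocrine genes CHGA, CHGB and SYP were detected on none of the 6 arrays. Neither were the leukocyte genes PTPRC and CD3E or the fibroblast genes COL3A1, DCN and LUM. Other markers of these types did give signal. The fibroblast gene COL1A1 was detected on all 6 arrays. COL1A2 and the neuroendocrine gene INSM1 were detected on 2 C4-2B arrays and 1 LNCaP array. The blood genes CD14 and LYZ were detected on 2 arrays of each line, and PDGFRB and HBB on 1 C4-2B array. Of the osteoblast genes BGLAP was detected on all 6 arrays, and SP7 and ALPL on none. LNCaP replicate 1 stood apart from the other two LNCaP arrays. Of the 103 genes called and more than 4-fold higher in C4-2B, it had the highest of the 3 LNCaP values in 84, and the median level of these genes was 5.60 on it, against 5.07 and 4.91 on replicates 2 and 3. Of the 117 genes called and more than 4-fold higher in C4-2B on the siControl arrays, which the DMSO arrays did not choose, it was again the highest in 80. Among 82 genes more than 4-fold lower in C4-2B, no C4-2B array stood out in this way, with the highest value in 28, 26 and 28. What set LNCaP replicate 1 apart was not tested. Without it 5042 genes passed the test, 2486 higher and 2556 lower, and values that it moved by more than 1.5 times are given with and without it.

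With all 6 arrays, 5493 of 13789 genes (39.8%) differed between the lines at an adjusted p under 0.05. C4-2B was higher at 2739 of them (19.9%) and lower at 2754 (20%), and the median difference over all genes was −0.0041 on the log2 scale. These shares are the background against which each group of genes below is to be read. Differences are C4-2B minus LNCaP in log2 units ± the standard error (SE) of the limma fit, p-values are adjusted over all 13789 genes, and a gene that passed is said to be called. The difference exceeded 1.5-fold at 1330 genes higher and 1272 lower, 2-fold at 467 and 450, and 4-fold at 103 and 82. The arrays of the lines did not overlap at 3281 genes higher (23.8%) and 3334 genes lower (24.2%). With each array centred on its median in place of quantile normalization, 2195 genes were called, 728 higher and 1467 lower, so the share higher among the called genes was 33.2%, against 49.9% with quantile normalization. The leading principal component of the 6 arrays held 80.6% of their variance.

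**Figure D1:**
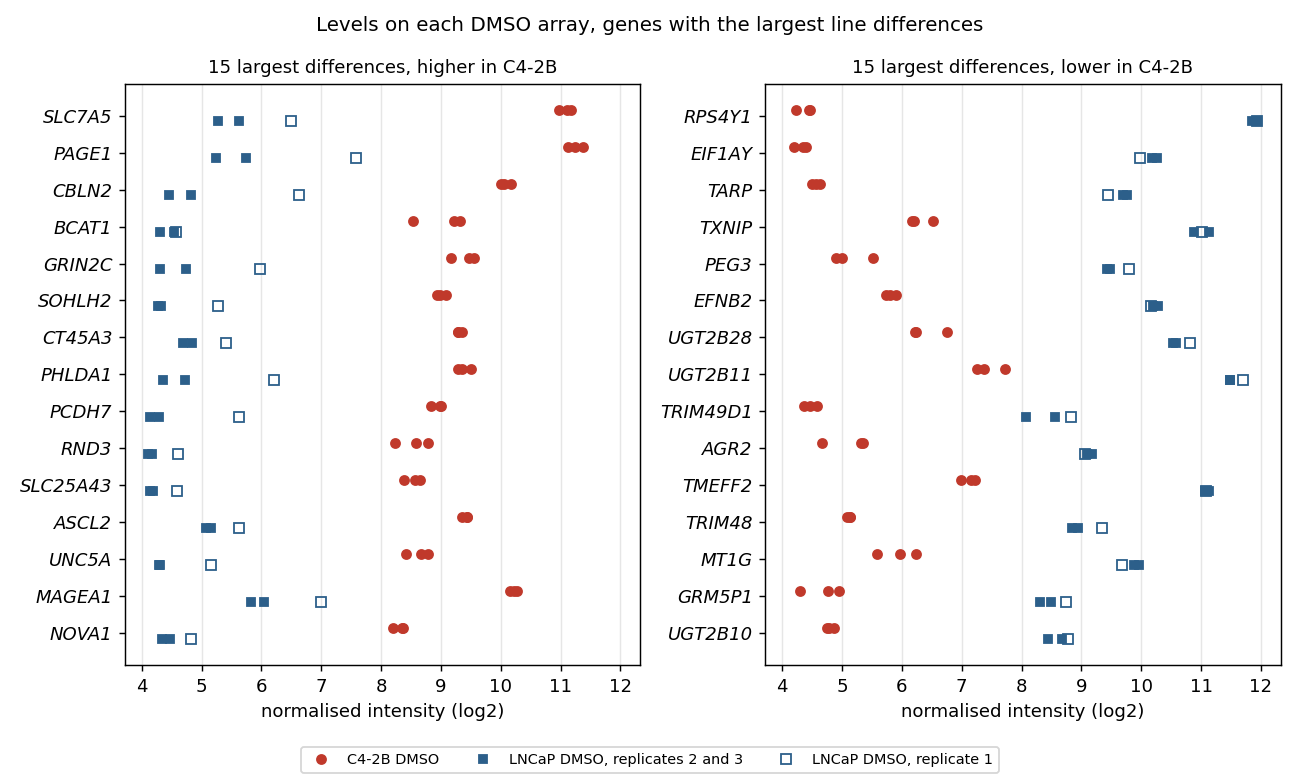
Normalised log2 intensity on each DMSO array (x axis) of the 15 genes with the largest differences higher in C4-2B (left) and the 15 lower in C4-2B (right). Circles are the 3 C4-2B arrays, filled squares LNCaP replicates 2 and 3, open squares LNCaP replicate 1; the lines do not overlap at any of the 30 genes, and the open square is the highest LNCaP value at all 15 genes on the left.

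The largest increase was at SLC7A5, the light chain of the LAT1 transporter, which brings leucine and other large neutral amino acids into cells. Its log2 levels were 11.10, 11.17 and 10.97 in C4-2B, against 6.49, 5.28 and 5.63 in LNCaP (difference 5.28 ± 0.20, adjusted p = 2.87e-16). BCAT1, which transfers the amino group of branched-chain amino acids, had levels of 9.32, 9.23 and 8.53 in C4-2B, against 4.57, 4.54 and 4.31 in LNCaP (4.55 ± 0.14, adjusted p = 8.37e-18). In both genes every C4-2B array lay more than 3 log2 units above every LNCaP array, and the lowest C4-2B value of BCAT1 was on replicate 3. PAGE1, a cancer-testis antigen on the X chromosome, had levels of 11.13, 11.24 and 11.38 in C4-2B, against 7.58, 5.24 and 5.74 in LNCaP (5.07 ± 0.31, adjusted p = 2.34e-12). CBLN2, a secreted synapse organizer, had levels of 10.17, 10.06 and 10.01 in C4-2B, against 6.62, 4.46 and 4.82 in LNCaP (4.78 ± 0.30, adjusted p = 2.74e-12). In PAGE1 and CBLN2 the LNCaP arrays were far apart, with replicate 1 highest, and without that array the differences were 5.76 and 5.44. The other genes among the 15 highest were GRIN2C, an NMDA receptor subunit (4.39 ± 0.25), SOHLH2, a germ cell transcription factor (4.38 ± 0.17), CT45A3, a cancer-testis antigen (4.32 ± 0.13), PHLDA1, a pleckstrin-homology protein (4.29 ± 0.26), PCDH7, a protocadherin (4.26 ± 0.22), and RND3, an atypical small GTPase (4.24 ± 0.13). They also included SLC25A43, a mitochondrial carrier (4.23 ± 0.12), ASCL2, a helix-loop-helix factor of stem cells (4.12 ± 0.13), UNC5A, a netrin receptor (4.04 ± 0.18), MAGEA1, a cancer-testis antigen (3.92 ± 0.18), and NOVA1, a neuronal splicing factor (3.76 ± 0.15).

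At the other end stood a pair of Y chromosome genes. RPS4Y1, a ribosomal protein gene of the Y, had levels of 4.44, 4.46 and 4.23 in C4-2B, against 11.93, 11.86 and 11.94 in LNCaP, and EIF1AY, a translation initiation factor gene of the Y, had levels of 4.35, 4.20 and 4.39 in C4-2B, against 9.98, 10.27 and 10.18 in LNCaP. Neither was detected on any C4-2B DMSO array and both were bright on all 3 LNCaP arrays, so RPS4Y1 was at least 164.9-fold lower and EIF1AY at least 48.5-fold lower in C4-2B. For a gene that no array of a line detected, such a bound sets the other line's mean against the detection level. EIF1AY had another probe with a difference of −2.70. TARP, a transcript of the T cell receptor gamma locus made by prostate cells under androgen, had levels of 4.49, 4.56 and 4.64 in C4-2B, against 9.45, 9.76 and 9.70 in LNCaP (−5.07 ± 0.13, adjusted p = 1.82e-19). TXNIP, which binds thioredoxin and restrains glucose uptake, had levels of 6.17, 6.20 and 6.52 in C4-2B, against 11.01, 11.13 and 10.88 in LNCaP (−4.71 ± 0.16, adjusted p = 6.09e-17). PEG3, an imprinted zinc finger gene, differed by −4.43 ± 0.14, EFNB2, an ephrin ligand, by −4.40 ± 0.08, AGR2, a secretory-pathway disulfide isomerase of luminal cells, by −4.00 ± 0.16, TMEFF2, a membrane protein of prostate, by −3.96 ± 0.08, and MT1G, a metal-binding metallothionein, by −3.91 ± 0.15. Of chromosome 11, TRIM49D1 and TRIM48, tripartite motif genes, differed by −4.01 ± 0.20 and −3.93 ± 0.15, and the pseudogene GRM5P1 by −3.85 ± 0.16. The remaining 3 of the 15 lowest were the glucuronosyltransferases UGT2B28, UGT2B11 and UGT2B10, described below. TRIM49D1, the UGT2B genes and the CT45A genes have close paralogs, and how far their probes separate these copies was not tested.

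**Figure D2:**
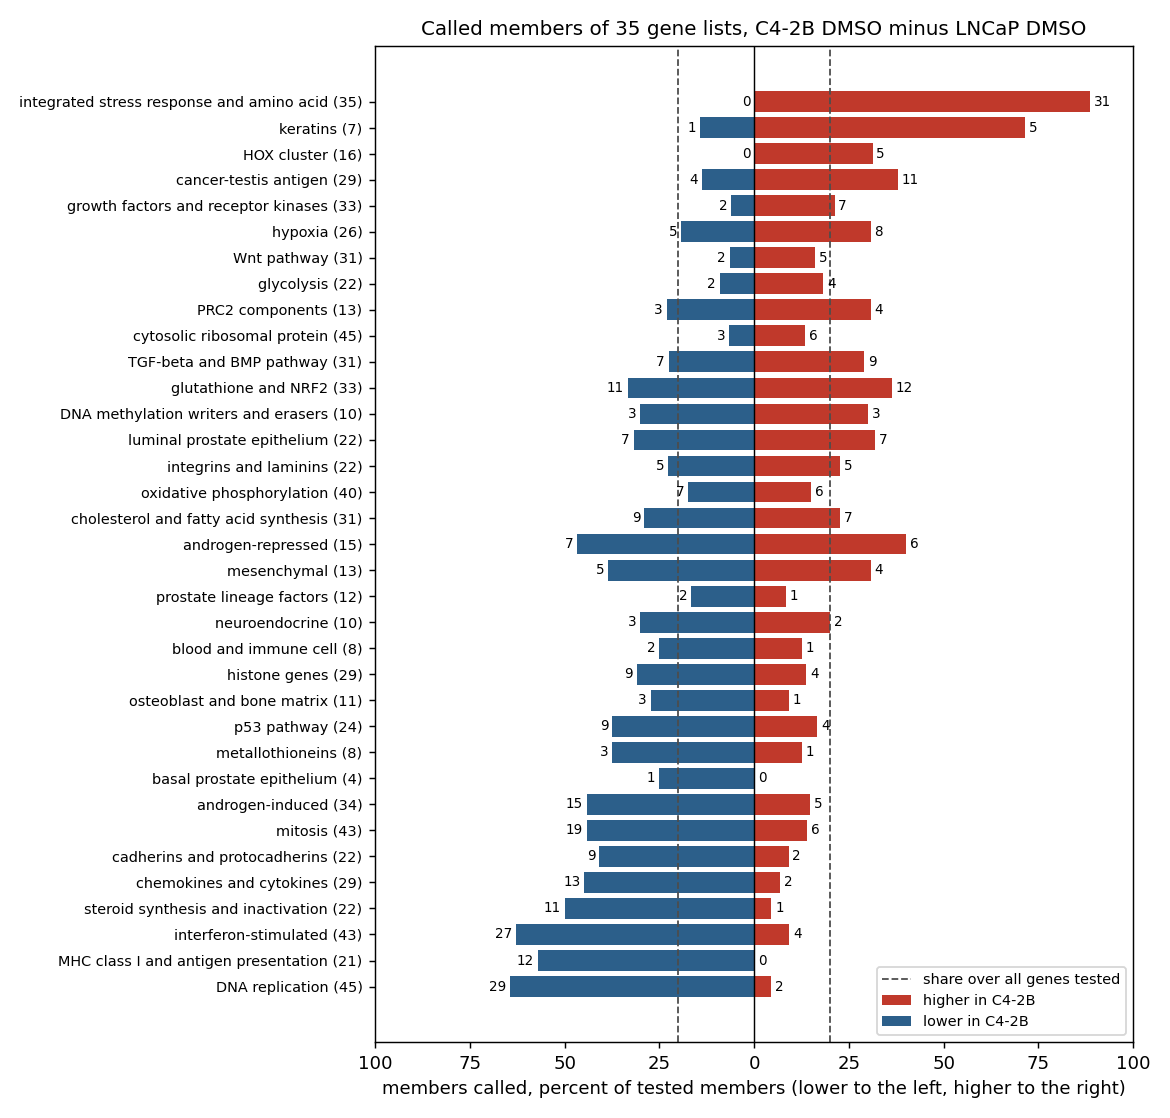
Share of the tested members of 35 gene lists called higher (right) and lower (left) in C4-2B DMSO against LNCaP DMSO, with the number of tested members in brackets, the number called beside each bar and the shares over all genes as dashed lines. The integrated stress response list has 31 of 35 members higher and none lower, and the DNA replication list has 29 of 45 lower and 2 higher.

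Genes of the integrated stress response and of amino acid supply were higher in C4-2B nearly throughout. Of 35 tested members 31 rose, none fell, and the median difference was 1.50, where 19.9% of all genes were called higher. The mean log2 level of the list was 10.13, 10.14 and 9.89 on the C4-2B DMSO arrays, against 8.55, 8.52 and 8.53 on the LNCaP DMSO arrays. The C4-2B DMSO arrays were above all 21 other arrays of the series, which lay between 8.32 and 8.94 and included 9 arrays of C4-2B in other cultures. Without LNCaP replicate 1, 29 members were called higher and none lower, and with median centring 24 were higher and 1 lower. The 4 members that were not called were GDF15 (−0.54 ± 0.25), SDF2L1 (0.01 ± 0.12), ALDH1L2 (0.38 ± 0.16) and ATF3 (0.42 ± 0.18).

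Among the transcription regulators of the list, ATF4 itself differed by 1.31 ± 0.12. DDIT3 (CHOP), a partner of C/EBP proteins induced by ATF4, had levels of 10.36, 10.37 and 9.90 in C4-2B, against 7.59, 7.55 and 7.43 in LNCaP (2.69 ± 0.14, adjusted p = 1.24e-13). TRIB3, a pseudokinase that restrains ATF4, had levels of 11.53, 11.60 and 11.40 in C4-2B, against 9.04, 8.87 and 8.98 in LNCaP (2.55 ± 0.16, adjusted p = 2.97e-12). NUPR1, a small stress-induced chromatin protein, had levels of 10.95, 11.27 and 11.39 in C4-2B, against 9.29, 9.32 and 9.11 in LNCaP (1.96 ± 0.15, adjusted p = 1.36e-10). The lines did not overlap in any of these 3 genes, and the spread within a line was below 0.6 log2 units. CEBPB, CEBPG and ATF5, other bZIP factors of this response, rose by 1.90 ± 0.13, 1.63 ± 0.11 and 1.11 ± 0.18.

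The enzymes and transporters downstream rose with them. ASNS, which makes asparagine, rose by 2.25 ± 0.11, and the serine synthesis enzymes PHGDH, PSAT1 and PSPH by 0.99 ± 0.10, 1.89 ± 0.13 and 2.30 ± 0.16. In mitochondrial folate metabolism MTHFD2 rose by 2.39 ± 0.11 and SHMT2 by 0.63 ± 0.10. SLC3A2, the heavy chain that pairs with SLC7A5, rose by 1.48 ± 0.14, the neutral amino acid transporters SLC1A4 and SLC1A5 by 2.30 ± 0.14 and 1.64 ± 0.12, and the cystine transporter SLC7A11 by 1.28 ± 0.12. The glycine transporter SLC6A9, which was not on the list, had levels of 8.67, 8.74 and 8.45 in C4-2B, against 5.70, 5.50 and 5.80 in LNCaP (2.95 ± 0.15, adjusted p = 9.08e-14), while its other probes gave 0.13 and 0.16. Of the tRNA synthetases, which charge tRNA with amino acids, SARS1 rose by 1.50 ± 0.11, WARS1 by 0.87 ± 0.14, NARS1 by 0.82 ± 0.11 and AARS1 by 0.52 ± 0.12. CHAC1, which degrades glutathione, was detected on no LNCaP DMSO array and was at least 3.68-fold higher, and SESN2 and DDIT4, which restrain mTORC1, rose by 1.50 ± 0.17 and 1.86 ± 0.25. The chaperone genes HSPA5 and DNAJB9 of the endoplasmic reticulum rose by 0.54 ± 0.20 and 1.63 ± 0.16, and XBP1, a transcription factor of the unfolded protein response, by 0.73 ± 0.11, although the arrays of HSPA5 overlapped because C4-2B replicate 3 was low. FGF21, a secreted hormone induced by ATF4, was detected on no LNCaP DMSO array and on all 3 C4-2B arrays, at 7.03, 7.05 and 7.30 in C4-2B, against 4.29, 4.48 and 4.20 in LNCaP, and was at least 6-fold higher in C4-2B (adjusted p = 2.88e-17). STC2, a secreted glycoprotein, had levels of 11.12, 10.89 and 10.71 in C4-2B, against 8.71, 8.70 and 8.88 in LNCaP (2.14 ± 0.17, adjusted p = 4.43e-10).

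This list set the DMSO cultures apart from the others. The line difference was larger in DMSO than in siControl cultures at 33 of 35 members, where 18.3% of all genes passed that test in the same direction, and smaller at none. It was larger in DMSO than in EPZ6438 cultures at 26 of 35, where 3.43% of all genes passed, and again smaller at none. This contrast depended on the processing. With median centring 20 of all 13789 genes passed it in that direction, so not all 26 calls held. The fit of the arrays of that contrast alone called 481 genes in place of 920. On the siControl arrays 6 members were higher and 17 lower in C4-2B, with a median of −0.34, where 22.6% and 24.3% of all genes were called in those directions. On the EPZ6438 arrays 18 were higher and 2 lower, with a median of 0.35, where 18.6% of all genes were called in each direction. DDIT3 differed between the lines by 2.69 with DMSO, −0.05 with EPZ6438 and 0.36 with siControl. SLC7A11 differed by 1.28, 0.02 and −1.70 in the same order, and was called in opposite directions with DMSO and siControl (difference of the line differences 2.98 ± 0.17, adjusted p = 3.06e-12). SLC7A5 was unlike the rest of the list in that it was far higher in C4-2B in all of these cultures, with 4.51 with EPZ6438 and 4.33 with siControl. The DMSO and siControl cultures were handled differently, and the sources used here do not say whether they were grown together, so the treatment cannot be told apart from anything else that differed between them. TXNIP moved with this list in the opposite direction, with line differences of −4.71 with DMSO, −2.57 with EPZ6438 and −0.15 with siControl (DMSO minus siControl −4.56 ± 0.23, adjusted p = 5.14e-13).

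The promoters of 3 of these genes are shown because they hold the letters that ATF4 and C/EBP proteins bind together, the C/EBP-ATF response element. It was searched as TGATGNAA on both strands in the 250 bases before each start in RefSeq promoters of build GRCh38.p14. These letters stood before 4 of 27 called members of the list with a promoter entry (14.8%), namely FGF21, ASNS, CHAC1 and AARS1, and before 1.54% of 10879 tested genes and 3.19% of 27305 promoters in the table. Of all 30 tested members with an entry they stood before 5 (16.7%), the other being ATF3, which was not called. The 250 bases before the start are given in the direction of the gene with the match in capitals, for FGF21 (chr19:48755274-48755523, plus strand), ASNS (chr7:97872409-97872658, minus strand) and CHAC1 (chr15:40953221-40953470, plus strand).
FGF21: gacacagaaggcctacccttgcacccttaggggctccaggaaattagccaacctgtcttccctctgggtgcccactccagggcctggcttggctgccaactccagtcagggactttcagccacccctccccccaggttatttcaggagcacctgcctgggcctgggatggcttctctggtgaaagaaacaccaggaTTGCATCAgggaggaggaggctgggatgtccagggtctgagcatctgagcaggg
ASNS: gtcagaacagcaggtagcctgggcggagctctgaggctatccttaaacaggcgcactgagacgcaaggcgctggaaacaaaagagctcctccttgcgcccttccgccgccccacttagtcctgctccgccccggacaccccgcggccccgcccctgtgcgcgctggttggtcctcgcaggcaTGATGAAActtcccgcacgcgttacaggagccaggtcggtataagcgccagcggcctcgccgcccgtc
CHAC1: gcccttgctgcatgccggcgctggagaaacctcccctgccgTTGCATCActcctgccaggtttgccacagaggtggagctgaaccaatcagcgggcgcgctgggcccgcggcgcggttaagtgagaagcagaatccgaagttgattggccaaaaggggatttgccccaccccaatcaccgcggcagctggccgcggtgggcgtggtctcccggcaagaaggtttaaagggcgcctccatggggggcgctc
The match began 54 bases before the start in FGF21, 68 in ASNS and 209 in CHAC1. A match is a run of letters in this window, and binding was not measured.

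Genes of DNA replication were lower in C4-2B with DMSO. Of 45 tested members 29 fell and 2 rose, with a median of −0.57, where 20% of all genes were called lower. GINS2, a subunit of the replicative helicase complex, had levels of 6.72, 6.77 and 7.51 in C4-2B, against 9.35, 9.28 and 9.44 in LNCaP (−2.36 ± 0.14, adjusted p = 1.67e-12). MCM4, another helicase subunit, had levels of 7.13, 7.17 and 7.73 in C4-2B, against 9.25, 8.75 and 8.98 in LNCaP (−1.65 ± 0.16, adjusted p = 7.66e-09). PCNA, the clamp that holds polymerases on DNA, had levels of 8.39, 8.49 and 8.89 in C4-2B, against 10.06, 10.10 and 10.14 in LNCaP (−1.51 ± 0.12, adjusted p = 3.74e-10). In all 3 genes the lines did not overlap and C4-2B replicate 3 was the closest to LNCaP. The same held for the mean level of the list, which was 7.54, 7.57 and 7.88 on the C4-2B arrays, against 8.30, 8.20 and 8.28 on the LNCaP arrays. TYMS, which makes thymidylate, fell by 1.50 ± 0.13, the flap endonuclease FEN1 by 1.47 ± 0.17 and the initiation factor MCM10 by 1.49 ± 0.16 on the log2 scale. RFC3, a clamp loader subunit (0.70 ± 0.12), and RPA1, which coats single strands (0.35 ± 0.10), were the members that rose. UHRF1, which brings maintenance methylation to newly copied DNA, had levels of 7.76, 7.99 and 8.66 in C4-2B, against 9.31, 9.24 and 9.42 in LNCaP (−1.19 ± 0.16, adjusted p = 1.15e-06; another probe gave −0.42), with replicate 3 again the highest of the C4-2B arrays.

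Mitosis genes moved less, with 19 of 43 lower and 6 higher and a median of −0.17. Of all genes 20% were called lower and 19.9% higher with DMSO. CCNA2, the cyclin of S phase and mitotic entry, had levels of 8.03, 7.99 and 8.41 in C4-2B, against 9.17, 9.14 and 9.22 in LNCaP (−1.03 ± 0.13, adjusted p = 1.08e-06), and MAD2L1, of the spindle checkpoint, 9.11, 9.24 and 9.81 in C4-2B, against 10.47, 10.32 and 10.37 in LNCaP (adjusted p = 0.000107). NUSAP1, which bundles spindle microtubules, differed by −0.82 ± 0.10. CENPA, the centromeric histone, rose, with levels of 8.94, 8.92 and 9.05 in C4-2B, against 8.16, 7.83 and 8.10 in LNCaP (0.94 ± 0.11, adjusted p = 1.23e-07), and so did the kinases AURKA (0.59 ± 0.11) and PLK1 (0.50 ± 0.11). With median centring 7 mitosis genes were called lower and 1 higher, while 25 replication genes were called lower and none higher. With siControl both lists were on the other side, with 34 of 45 replication genes and 41 of 43 mitosis genes higher in C4-2B. None of either list was lower, where 22.6% of all genes were called higher and 24.3% lower with siControl. The line difference was lower in DMSO than in siControl cultures at 37 of 45 replication genes and 41 of 43 mitosis genes, where 15.9% of all genes passed that test in this direction. At GINS2 the line difference was −2.36 with DMSO and 0.66 with siControl (−3.02 ± 0.20, adjusted p = 3.99e-11), and at MCM4 it was −1.65 and 1.62 (−3.26 ± 0.22, adjusted p = 6.19e-11). Against EPZ6438 cultures the difference was lower in DMSO at 20 of 45 replication genes, where 3.24% of all genes passed, and at no mitosis gene. With median centring 15 of all 13789 genes passed that test in this direction, so not all 20 calls held. These are levels of RNA from whole cultures, in which fewer cells of one state and less RNA per cell cannot be told apart, and cell number was not given.

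**Figure D3:**
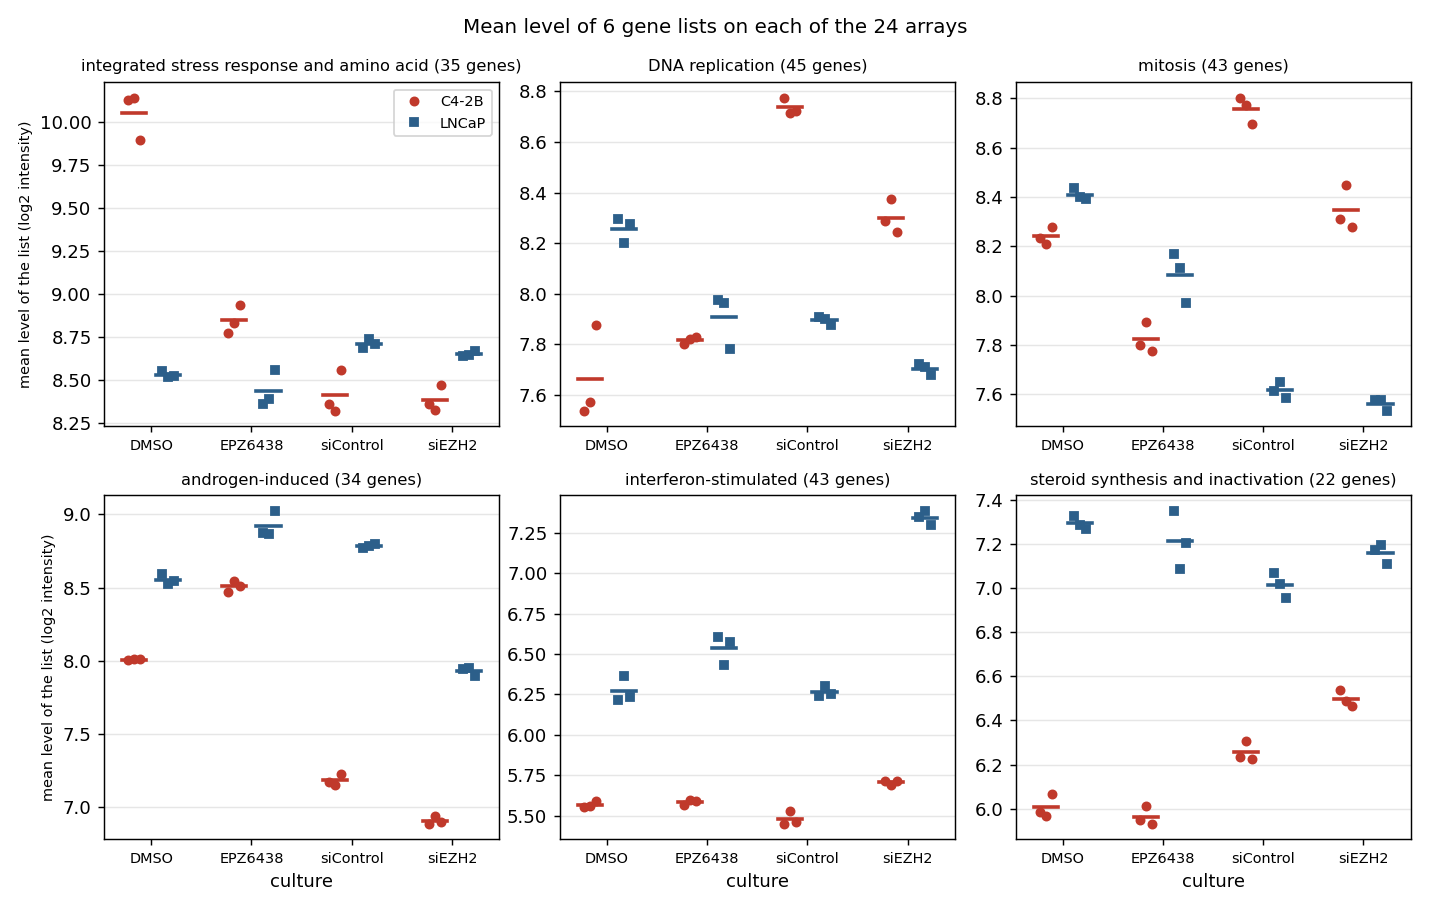
Mean log2 level of the tested genes of 6 lists on each of the 24 arrays, by culture along the x axis, with C4-2B (circles) left of LNCaP (squares) and short lines for the mean of 3 arrays. The integrated stress response list stands at 9.89 to 10.14 on the C4-2B DMSO arrays and at 8.94 or lower elsewhere, and the replication and mitosis lists change sides between DMSO and siControl.

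Androgen-induced genes leaned lower in C4-2B with DMSO, with members in both directions. Of 34 tested members 15 fell and 5 rose, with a median of −0.17, where 20% of all genes were called lower and 19.9% higher. The count that rose was 2 with median centring and 3 without LNCaP replicate 3. HERC3, an E3 ubiquitin ligase, had levels of 6.23, 6.13 and 6.15 in C4-2B, against 8.88, 8.52 and 8.63 in LNCaP (−2.51 ± 0.15, adjusted p = 1.67e-12). ACP3, prostatic acid phosphatase, had levels of 6.35, 6.36 and 6.20 in C4-2B, against 8.73, 8.74 and 8.68 in LNCaP (−2.41 ± 0.09, adjusted p = 1.9e-16). ADAMTS1, a secreted protease, had levels of 9.06, 8.94 and 8.86 in C4-2B, against 10.76, 10.99 and 10.89 in LNCaP (−1.93 ± 0.11, adjusted p = 7.15e-13). In each of these the C4-2B arrays lay below all LNCaP arrays by more than 1.5 log2 units. FKBP5, a cochaperone of steroid receptors, differed by −0.92 ± 0.11, TMPRSS2, a serine protease, by −0.73 ± 0.12, and SLC45A3 (prostein), a sugar transporter family member, by −0.89 ± 0.14. AZGP1, a zinc-binding secreted glycoprotein, rose by 1.46 ± 0.12 and the kallikrein KLK15 by 1.27 ± 0.10. The prostate kallikreins themselves were not called. KLK3, which encodes prostate-specific antigen, had levels of 7.90, 7.96 and 8.86 in C4-2B, against 8.24, 8.16 and 8.75 in LNCaP (−0.14 ± 0.19, adjusted p = 0.59). The lines overlapped because C4-2B replicate 3 lay above every LNCaP array, and replicate 3 was the highest array of each line. KLK2 differed by 0.02 ± 0.13 and KLK4 by 0.22 ± 0.14. Without C4-2B replicate 3 the difference of KLK3 was −0.45 and passed the test (adjusted p = 0.0234).

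With siControl 27 of the 34 androgen-induced genes were lower in C4-2B and 1 higher, with a median of −1.26. Of all genes 24.3% were called lower there and 22.6% higher. The line difference was less negative or more positive in DMSO at 23 genes and the reverse at 2. Over all genes these shares were 18.3% and 15.9%. KLK3 differed between the lines by −4.14 there, against −0.14 with DMSO (4.00 ± 0.27, adjusted p = 3.82e-11). The mean level of the list was 8.00, 8.01 and 8.01 on C4-2B DMSO arrays and 7.17, 7.15 and 7.23 on C4-2B siControl arrays, and 8.59, 8.52 and 8.55 on LNCaP DMSO arrays and 8.77, 8.79 and 8.80 on LNCaP siControl arrays. Among lineage factors FOXA1, HOXB13, GATA2, SPDEF and GRHL2, transcription factors of luminal prostate cells, were not called, with differences between −0.31 and 0.27. ELF3, an epithelial ETS factor, was lower, with levels of 4.93, 5.18 and 5.54 in C4-2B, against 7.17, 7.65 and 7.21 in LNCaP (−2.12 ± 0.20, adjusted p = 6.94e-09), and its relative EHF was higher (0.74 ± 0.17, adjusted p = 0.00112). The EHF call was lost with median centring (0.53, adjusted p = 0.307). Of 22 luminal genes 7 rose and 7 fell with DMSO, where 19.9% of all genes were called higher and 20% lower. MUC1, a membrane mucin, had levels of 8.13, 8.21 and 8.19 in C4-2B, against 6.02, 5.71 and 5.70 in LNCaP (2.36 ± 0.18, adjusted p = 7.8e-11), and CD24, a surface sialoglycoprotein, had levels of 5.62, 5.52 and 5.44 in C4-2B, against 7.56, 8.12 and 7.92 in LNCaP (−2.34 ± 0.13, adjusted p = 2.5e-13), in opposite directions and without overlap. Other probes gave 0.23 and 1.50 for MUC1 and −0.31 for CD24. AGR2 had levels of 5.35, 5.31 and 4.67 in C4-2B, against 9.07, 9.18 and 9.09 in LNCaP, and its other probe gave −1.63.

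**Figure D4:**
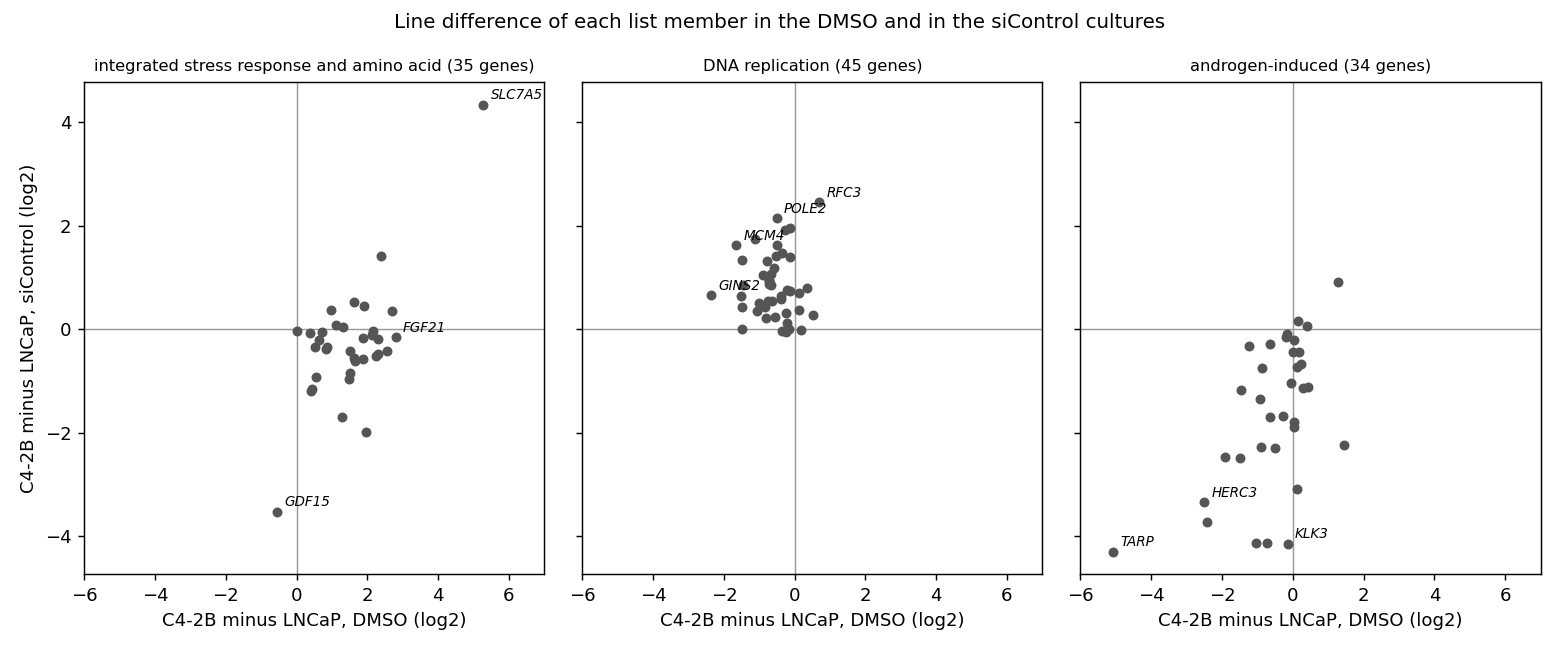
Line difference (C4-2B minus LNCaP, log2) of each tested member of 3 lists in the DMSO cultures (x axis) and in the siControl cultures (y axis), 1 point per gene. All members of the integrated stress response list but GDF15 lie right of 0 and mostly below the horizontal line, replication genes lie mostly left of 0 and above it, and KLK3 lies near 0 with DMSO and at −4.14 with siControl.

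Glucuronosyltransferases of the UGT2B family were far lower in C4-2B. The UGT2B genes of chromosome 4 encode glucuronosyltransferases, of which UGT2B15, UGT2B17 and UGT2B28 inactivate androgens. UGT2B28 had levels of 6.23, 6.24 and 6.75 in C4-2B, against 10.82, 10.52 and 10.58 in LNCaP (−4.24 ± 0.14, adjusted p = 2.37e-17). UGT2B11 had levels of 7.37, 7.26 and 7.73 in C4-2B, against 11.71, 11.49 and 11.49 in LNCaP (−4.11 ± 0.13, adjusted p = 7.7e-18), and UGT2B10 had levels of 4.76, 4.86 and 4.78 in C4-2B, against 8.78, 8.68 and 8.45 in LNCaP (−3.84 ± 0.15, adjusted p = 3.42e-16). UGT2B17 and UGT2B15, which are repressed by androgen, differed by −3.09 ± 0.14 and −2.80 ± 0.28, and another probe of UGT2B15 gave −0.92. No C4-2B array reached any LNCaP array in these 5 genes, and C4-2B replicate 3 was the highest C4-2B array in all but UGT2B10. UGT2B4, a family member that acts on bile acids and steroids, was not called (−0.07 ± 0.10). The line differences of UGT2B28, UGT2B11 and UGT2B10 were larger with DMSO than with siControl, where they were −0.99, −1.27 and −0.71, and the difference for UGT2B28 was −3.25 ± 0.20, adjusted p = 1.11e-11. That of UGT2B17 was −2.74 with siControl, and the change between the cultures did not pass the test (adjusted p = 0.199).

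Aldo-keto reductases that interconvert steroid ketones and alcohols were lower as well. AKR1C2 differed by −2.87 ± 0.14, and AKR1C4 by −1.99 ± 0.17. AKR1C3, which makes testosterone from androstenedione, and CYP3A5, which hydroxylates testosterone, were detected on no C4-2B array and were at least 2.23-fold and 3.33-fold lower. CYP11A1, which starts steroid synthesis from cholesterol, differed by −0.86 ± 0.15. HSD17B6, which oxidises androgen metabolites, was the member that rose (0.55 ± 0.14). In all, 11 of 22 tested genes of steroid synthesis and inactivation fell and 1 rose, with a median of −0.64. Of all genes 20% were called lower and 19.9% higher. The mean level of this list was 5.99, 5.97 and 6.06 in C4-2B, against 7.33, 7.29 and 7.27 in LNCaP. Of 15 androgen-repressed genes 7 fell, 4 of them UGT2B genes, and 6 rose, while with median centring 5 fell and 2 rose. DDC, an amine-forming decarboxylase, rose by 2.43 ± 0.11, and BCHE, a cholinesterase, fell by 0.84 ± 0.13 on the log2 scale.

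Interferon-stimulated genes were lower in C4-2B. Of 43 tested members 27 fell and 4 rose, with a median of −0.51, where 20% of all genes were called lower and 19.9% higher. IFIT1 and IFIT2 encode proteins that block translation of viral RNA. IFIT2 had levels of 4.33, 4.35 and 4.30 in C4-2B, against 7.25, 7.36 and 7.02 in LNCaP, and IFIT1 had levels of 4.27, 4.35 and 4.28 in C4-2B, against 7.27, 7.31 and 6.93 in LNCaP. No C4-2B DMSO array detected either gene, so IFIT2 was at least 6.35-fold and IFIT1 at least 6.18-fold lower in C4-2B (adjusted p = 3.95e-14 and 5.25e-12). Another kept probe of IFIT1 showed no such difference (−0.0011). IFI44, an interferon-induced cytoplasmic protein, had levels of 4.71, 4.41 and 5.26 in C4-2B, against 7.68, 7.64 and 7.43 in LNCaP (−2.79 ± 0.17, adjusted p = 3.21e-12). GBP2, a guanylate-binding GTPase of cell-autonomous defence, had levels of 4.17, 4.13 and 4.21 in C4-2B, against 6.86, 7.08 and 6.75 in LNCaP, detected on no C4-2B array, and was at least 5.11-fold lower. OASL and OAS3, of the antiviral oligoadenylate synthetase family, differed by −1.99 ± 0.13 (another probe of OASL −0.19) and −1.82 ± 0.12, ISG15, a ubiquitin-like modifier, by −1.36 ± 0.13, DDX60, a helicase of viral RNA sensing, by −1.39 ± 0.13, and IRF1, an interferon-responsive transcription factor, by −1.29 ± 0.20. BST2, which tethers budding viruses (1.71 ± 0.14), PARP14, an ADP-ribosyltransferase (0.97 ± 0.13), IRF7, a regulator of interferon genes (0.91 ± 0.15), and IFITM1, a membrane protein that restricts virus entry (0.50 ± 0.11), were the members that rose. The list was lower in C4-2B in each culture, with 27 members called lower with DMSO, 29 with EPZ6438, 31 with siControl and 38 with siEZH2, where 23% of all genes were called lower with siEZH2 and 23.1% higher. Without LNCaP replicate 1, 26 members fell and 4 rose with DMSO.

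Antigen presentation and chemokine genes were lower too with DMSO, where 20% of all genes were called lower and 19.9% higher. Of 21 tested genes of MHC class I and antigen presentation 12 fell and none rose, with a median of −0.58. With siControl 9 of them were lower and none higher, with a median of −0.17. HLA-DMB, which edits peptides on class II molecules, had levels of 5.16, 5.44 and 5.20 in C4-2B, against 8.28, 8.45 and 8.44 in LNCaP (−3.13 ± 0.12, adjusted p = 2.4e-16). TAP1, which pumps peptides into the endoplasmic reticulum, had levels of 7.23, 7.28 and 7.20 in C4-2B, against 8.94, 9.10 and 8.92 in LNCaP (−1.75 ± 0.11, adjusted p = 4.08e-12). The lines were apart by more than 1.5 log2 units on every array of both genes. HLA-DMA, the partner of HLA-DMB, differed by −1.47 ± 0.12, the chaperone CALR by −1.01 ± 0.12, the class I light chain B2M by −0.80 ± 0.11 and the class I heavy chain HLA-B by −0.58 ± 0.11. Of 29 chemokines, cytokines and their receptors 13 fell and 2 rose. With siControl 7 of them were lower and 6 higher, with a median of −0.03. Of all genes 24.3% were called lower there and 22.6% higher. CXCL10, a chemokine for T cells, had levels of 4.47, 4.38 and 4.25 in C4-2B, against 6.68, 6.76 and 6.57 in LNCaP and CCL20, a chemokine for lymphocytes and dendritic cells, had levels of 4.24, 4.40 and 4.25 in C4-2B, against 6.60, 6.17 and 6.20 in LNCaP. Neither was detected on a C4-2B array, and they were at least 4.37-fold and 3.44-fold lower. CCL8 and CCL5, which attract monocytes and T cells, differed by −2.13 ± 0.13 and −1.76 ± 0.24. CXCL12, the ligand of CXCR4, rose by 1.40 ± 0.15, and its other probes gave 0.21 and 0.23. CCL20 and CCL8 were among the 5 genes with the most negative DMSO minus siControl contrast, since with siControl they were higher in C4-2B by 5.93 and 2.69 (−7.96 ± 0.24, adjusted p = 3.48e-17 for CCL20).

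The promoters of 3 interferon-stimulated genes are shown because they carry the interferon-stimulated response element, the letters bound by STAT and IRF factors after interferon. GAAA, any 2 bases and again GAAA were searched on both strands in the same 250-base windows, where matches can overlap each other. It stood before 17 of the 22 members that fell and have a promoter entry (77.3%), against 2.4% of 10879 tested genes and 3.07% of 27305 promoters. Of all 36 tested members with an entry it stood before 23 (63.9%), so members that did not fall held it too, though less often. The sequences are from RefSeq on GRCh38.p14 for IFIT1 (chr10:89392373-89392622, plus strand), IFI44 (chr1:78649539-78649788, plus strand) and ISG15 (chr1:1013247-1013496, plus strand), with matches in capitals.
IFIT1: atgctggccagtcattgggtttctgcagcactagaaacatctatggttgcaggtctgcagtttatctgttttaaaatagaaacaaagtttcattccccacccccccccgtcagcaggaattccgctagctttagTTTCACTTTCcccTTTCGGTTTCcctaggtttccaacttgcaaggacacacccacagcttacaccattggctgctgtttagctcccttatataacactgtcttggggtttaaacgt
IFI44: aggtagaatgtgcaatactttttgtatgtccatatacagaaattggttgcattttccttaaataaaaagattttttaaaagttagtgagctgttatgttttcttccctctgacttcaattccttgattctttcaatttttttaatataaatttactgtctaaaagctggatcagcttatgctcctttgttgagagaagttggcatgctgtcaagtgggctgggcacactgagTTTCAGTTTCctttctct
ISG15: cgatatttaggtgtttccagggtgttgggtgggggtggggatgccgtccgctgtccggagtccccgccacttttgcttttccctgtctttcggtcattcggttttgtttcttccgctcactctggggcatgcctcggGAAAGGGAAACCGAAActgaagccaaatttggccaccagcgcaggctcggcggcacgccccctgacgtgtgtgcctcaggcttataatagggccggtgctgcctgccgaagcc
The match began 18 bases before the start in IFI44, and IFIT1 and ISG15 each held a pair of matches, which overlap in ISG15. Factor binding was not measured here.

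Cancer-testis antigens, which are normally made in germ cells, rose more often than they fell. Of 29 tested members 11 rose and 4 fell, where 19.9% and 20% of all genes were called in those directions, and with median centring 7 rose and 1 fell. Besides PAGE1, MAGEA1 had levels of 10.16, 10.26 and 10.22 in C4-2B, against 7.00, 6.05 and 5.82 in LNCaP (3.92 ± 0.18, adjusted p = 6.72e-15), CTAG2 had levels of 7.06, 7.16 and 7.13 in C4-2B, against 4.60, 4.30 and 4.22 in LNCaP (2.74 ± 0.12, adjusted p = 6.62e-15; another probe 0.32), and CT45A1 had levels of 6.88, 6.74 and 6.63 in C4-2B, against 4.43, 4.31 and 4.24 in LNCaP. CT45A1 was detected on no LNCaP DMSO array and was at least 4.62-fold higher, though its other kept probes gave 0.03 and 0.10. MAGEC2 rose by 2.33 ± 0.13, with −0.12 at another probe. The members that fell were MAGEA8 (−0.60 ± 0.11), MAGEA4 (−0.54 ± 0.13), MAGEA6 (−0.44 ± 0.11) and MAGEA3 (−0.39 ± 0.12), of a family with near-identical copies, so which copies were measured is uncertain. Outside the list NANOS3, an RNA-binding protein of germ cells, was detected on all 3 C4-2B arrays and no LNCaP array and was at least 6.07-fold higher.

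HOX genes, which give cells their position along the body axis, rose at 5 of 16 tested members and fell at none. Of all genes 19.9% were called higher and 20% lower. The share of the list called either way was 31.2%, below the 39.8% of all genes. HOXB7 had levels of 6.69, 6.94 and 6.87 in C4-2B, against 4.37, 4.38 and 4.24 in LNCaP, undetected in LNCaP, and was at least 4.88-fold higher. HOXC8 had levels of 6.16, 6.27 and 6.35 in C4-2B, against 4.62, 4.37 and 4.63 in LNCaP (1.72 ± 0.17, adjusted p = 1.21e-08), and HOXB5 differed by 0.83 ± 0.14. HOXD13 (0.49 ± 0.16) was called although its arrays overlapped, since C4-2B values were 4.71, 4.32 and 5.32, and its call was lost without C4-2B replicate 3 (0.23, adjusted p = 0.173). With median centring 2 members were called higher, and HOXB5 was not (adjusted p = 0.0504).

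Of 22 cadherins and protocadherins, which join neighbouring cells, 9 fell and 2 rose, where 20% of all genes were called lower and 19.9% higher. With centring on detected probes 5 of them fell. PCDHB2, of the clustered protocadherins on chromosome 5, had levels of 4.33, 4.52 and 4.42 in C4-2B, against 7.89, 8.01 and 8.10 in LNCaP, undetected in C4-2B, and was at least 11-fold lower, although another probe gave −0.06. PCDHB5 of the same cluster was at least 5.36-fold lower. CDH1, E-cadherin of epithelia, differed by −0.40 ± 0.09. PCDH7 had levels of 9.01, 8.84 and 8.98 in C4-2B, against 5.62, 4.13 and 4.29 in LNCaP and rose, though its other probes gave 0.72 and 1.03. PCDH20 had levels of 8.78, 8.66 and 8.50 in C4-2B, against 6.36, 5.65 and 5.32 in LNCaP and rose too. In both LNCaP replicate 1 was the highest LNCaP array. Among laminins of the basement membrane LAMB1 rose (1.32 ± 0.12), while LAMC1 (−1.29 ± 0.10) and LAMB2 (−1.09 ± 0.22) fell and LAMA1, undetected in C4-2B, was at least 2.89-fold lower (another probe −0.28). Integrins and laminins together had 5 members higher and 5 lower of 22, near the shares of all genes, and 2 and 3 with median centring. Of 7 keratins of the cytoskeleton 5 rose and 1 fell, against 2 and 1 with median centring, where KRT10 and KRT80 lost their calls (adjusted p = 0.203 and 0.0701). Without LNCaP replicate 1, 2 keratins fell. KRT19, of simple epithelia, had levels of 7.70, 7.94 and 8.16 in C4-2B, against 6.56, 6.42 and 6.49 in LNCaP (1.45 ± 0.14, adjusted p = 7.45e-09), while KRT8 was lower, with 8.13, 8.29 and 8.15 in C4-2B, against 8.96, 9.01 and 8.84 in LNCaP (−0.74 ± 0.13, adjusted p = 8.25e-05). Of 13 mesenchymal genes 4 rose and 5 fell, and with median centring 2 rose and 4 fell. VIM, the filament of mesenchymal cells, had levels of 8.99, 9.14 and 9.18 in C4-2B, against 7.90, 8.04 and 7.79 in LNCaP (1.19 ± 0.10, adjusted p = 7.25e-10), and ACTA2, smooth muscle actin, had levels of 4.74, 4.77 and 4.48 in C4-2B, against 7.81, 8.21 and 7.84 in LNCaP (−3.29 ± 0.15, adjusted p = 7.3e-15). TWIST1, a mesenchymal transcription factor, was detected on no C4-2B array and was at least 4.25-fold lower.

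Genes of signalling pathways moved in both directions, where 19.9% of all genes were called higher and 20% lower. The share called either way was 22.6% in the Wnt list and 27.3% among growth factors and receptor kinases. Both were below the 39.8% of all genes. It was 51.6% in the TGF-beta and BMP list and 54.2% in the p53 pathway. In the TGF-beta and BMP list 9 of 31 rose and 7 fell, and with median centring 4 rose and 6 fell. BMP7, a bone morphogenetic protein, had levels of 6.21, 6.73 and 6.54 in C4-2B, against 4.28, 4.19 and 4.24 in LNCaP, undetected in LNCaP, and was at least 3.85-fold higher. ID3, an inhibitor of helix-loop-helix factors and a BMP target, had levels of 7.07, 7.00 and 7.36 in C4-2B, against 9.04, 9.02 and 9.02 in LNCaP (−1.88 ± 0.11, adjusted p = 4.82e-13). BAMBI, a decoy receptor of the family (−1.87 ± 0.10), BMPR1B, a BMP receptor (−1.47 ± 0.13), and the inhibitor SMAD7 (−0.91 ± 0.12) were lower. In the Wnt list 5 of 31 rose, among them the receptors FZD2 (1.57 ± 0.11) and FZD4 (1.53 ± 0.11) and the inhibitor NKD2 (1.05 ± 0.17), and 2 fell, while with median centring 3 rose and none fell. WLS, outside the list, which carries Wnt proteins to the cell surface, had levels of 4.76, 5.15 and 4.49 in C4-2B, against 7.98, 8.29 and 8.05 in LNCaP (−3.31 ± 0.13, adjusted p = 3.4e-16), but was higher in C4-2B with siControl (1.37). The other 4 probes of WLS gave −0.80 to −0.34. Of 33 growth factors and receptor kinases 7 rose and 2 fell, and with median centring 4 rose and 1 fell. EPHA3, an ephrin receptor, rose by 2.29 ± 0.13 (another probe 0.50), MET, the hepatocyte growth factor receptor, by 1.17 ± 0.13 and VEGFA, which drives vessel growth, by 1.89 ± 0.31. IGF1R, an insulin-like growth factor receptor, was undetected in C4-2B and at least 1.55-fold lower. The p53 pathway had 9 of 24 members lower and 4 higher, with a median of −0.22, and with median centring 5 were lower and 1 higher. CDKN1A, which inhibits cyclin-dependent kinases, had levels of 9.82, 9.84 and 10.01 in C4-2B, against 11.19, 11.25 and 11.15 in LNCaP (−1.31 ± 0.11, adjusted p = 1.57e-09), though its other probe gave 0.02. SESN1 (−1.28 ± 0.10) and BAX, which permeabilises mitochondria (−1.18 ± 0.22), were lower too, and other probes of BAX gave −0.08 and 0.06.

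Metabolic groups were divided, where 19.9% of all genes were called higher and 20% lower. Of 31 cholesterol and fatty acid synthesis genes 7 rose and 9 fell, and with median centring 2 rose and 8 fell. ELOVL6, which lengthens saturated fatty acids, had levels of 6.36, 6.40 and 6.69 in C4-2B, against 8.87, 9.34 and 9.11 in LNCaP (−2.62 ± 0.12, adjusted p = 6.18e-15). ACSL1, which activates fatty acids, rose by 0.94 ± 0.14 and fell with siControl (−1.60). Glutathione and NRF2 genes had 12 of 33 higher and 11 lower (5 and 6 with median centring), with GCLC, which starts glutathione synthesis, at 1.01 ± 0.12 and the transferases GSTA1 and GSTA4 at −1.43 ± 0.12 and −1.08 ± 0.12. In glycolysis 4 of 22 rose and 2 fell (1 and 1 with median centring), with hexokinase HK2 at 1.39 ± 0.14 and the phosphofructokinase PFKM at 0.86 ± 0.09, of which the call of PFKM was lost with median centring (adjusted p = 0.0606). Of 26 hypoxia genes 8 rose and 5 fell, and with median centring 4 rose and 3 fell. STC2, VEGFA and DDIT4 rose in it, of which STC2 and DDIT4 also stand on the integrated stress response list. CA12, a carbonic anhydrase of the cell surface, had levels of 6.43, 6.33 and 6.59 in C4-2B, against 8.44, 8.50 and 8.50 in LNCaP (−2.03 ± 0.12, adjusted p = 1.67e-12). Oxidative phosphorylation had 6 of 40 higher and 7 lower, and cytosolic ribosomal proteins 6 of 45 higher and 3 lower, shares below those of all genes, and with median centring none of either list was higher and 2 of each were lower. Of 8 metallothionein genes MT1G, MT1E (−1.91 ± 0.21, another probe −0.16) and MT1H (−1.05 ± 0.14) fell and MT1F rose (0.92 ± 0.10). The call of MT1F was lost with median centring (adjusted p = 0.0707).

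Chromatin genes differed in both directions, where 19.9% of all genes were called higher and 20% lower. Of 13 PRC2 components, the complex that methylates histone H3, 4 rose and 3 fell. EZH2, its catalytic subunit, differed by 0.04 ± 0.16, adjusted p = 0.864, SUZ12 by −0.01 ± 0.10, and EED, another core subunit, by −0.45 ± 0.11. The accessory subunits AEBP2 (0.67 ± 0.10), PHF1 (0.55 ± 0.16) and EPOP (0.45 ± 0.13) were higher and MTF2 lower (−0.57 ± 0.13). The calls of AEBP2, PHF1 and EPOP were lost with median centring (adjusted p = 0.16, 0.176 and 0.522), which left no member of the list higher and 1 lower. In the list of DNA methylation writers and erasers 3 of 10 rose and 3 fell, none and 2 with median centring, and DNMT1, the maintenance methyltransferase, was not called (−0.17 ± 0.11). Histone genes had 4 of 29 higher and 9 lower (1 and 7 with median centring), led by MACROH2A2, a variant of silent chromatin (−1.66 ± 0.09).

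Markers of other lineages differed in both directions, where 19.9% of all genes were called higher and 20% lower. The share called either way was 50% of neuroendocrine, 36.4% of bone, 25% of basal and 37.5% of blood genes. With lists this short, these shares do not set the markers apart from the 39.8% of all genes. Of 10 tested neuroendocrine genes 2 rose and 3 fell, and with median centring none rose and 2 fell. SYT4, a vesicle protein, had levels of 9.42, 9.37 and 9.11 in C4-2B, against 12.09, 12.12 and 12.03 in LNCaP (−2.78 ± 0.09, adjusted p = 2.34e-17). Of 11 bone genes 1, BMP7, rose and 3 fell (1 with median centring), with RUNX2, the osteoblast transcription factor, at −0.82 ± 0.10 (another probe −0.11). Of 4 basal genes SERPINB5, a serpin of epithelia, fell (−1.71 ± 0.15). Of 8 blood genes CD8A, undetected in LNCaP, was at least 1.43-fold higher, and CD68 and CD79A fell with calls that were lost under 8 alternatives each.

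Many genes were detected in one line and not in the other. Of the 13789 genes tested, 184 were detected on all 3 LNCaP arrays and no C4-2B array. Of these 171 were called, 54 at least 2-fold and 18 at least 4-fold lower. On all 3 C4-2B arrays and no LNCaP array 146 genes were detected. Of these 139 were called, 35 at least 2-fold and 12 at least 4-fold higher. Detection on the same 6 arrays chose these genes, so their calls and directions were largely fixed by that choice. Beyond those named above, the genes with LNCaP signal alone included SEMA6A, a semaphorin of cell guidance (at least 10.9-fold lower), RLN1, a relaxin hormone (at least 8.20-fold), HPGD, which degrades prostaglandins (at least 8.15-fold), PLAAT4, a retinoid-induced gene (at least 6.15-fold), and MMP7, a metalloprotease (at least 5.98-fold). Genes with C4-2B signal alone included CT45A5 (at least 8.27-fold higher, with other probes at 0.07 and 3.12), MKX, a homeobox factor of tendon (at least 7.95-fold), and BCL11B, a T cell zinc finger factor (at least 5.73-fold). BCL11B had levels of 7.47, 7.24 and 6.48 in C4-2B, against 4.48, 4.29 and 4.44 in LNCaP, and differed by −0.36 with siControl and 0.21 with EPZ6438. These genes outside the named lists were picked after their values were seen.

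The Y chromosome carried the highest share of decreases. Of 24 tested Y genes 13 fell (54.2%) and 1 rose, and 11 were detected on all 3 LNCaP arrays and on no C4-2B array. KDM5D, a histone demethylase, averaged 4.20 ± 0.05 in C4-2B and 6.95 ± 0.09 in LNCaP (SD, n = 3 each) and was at least 5.31-fold lower. USP9Y, a deubiquitinase, and ZFY, a zinc finger factor, were at least 3.92-fold and 2.59-fold lower, undetected on the C4-2B arrays. TSPY1, a gene of testis with several copies, was the member that rose (0.36), and VCY was detected on every array of both lines. The arrays measure RNA, and the presence of the chromosome was not tested.

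**Figure D5:**
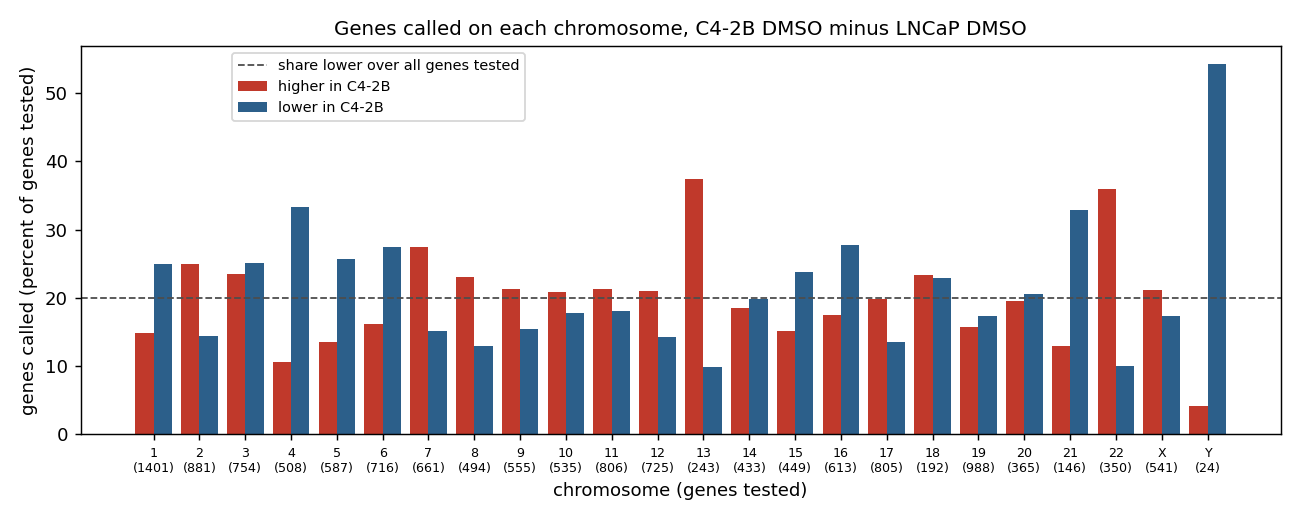
Genes called higher (left bar) and lower (right bar) in C4-2B DMSO as a percent of the genes tested on each chromosome, with the number tested in brackets and the share lower over all genes as a dashed line. Chromosome Y has 54.2% lower, chromosomes 13 and 22 have 37.4% and 36% higher, and chromosomes 4 and 21 have 33.3% and 32.9% lower.

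Other chromosomes leaned one way by less. On chromosome 13, 91 of 243 genes (37.4%) were higher and 24 lower, and on chromosome 22, 126 of 350 (36%) were higher and 35 lower. On chromosome 4, 169 of 508 genes (33.3%) were lower and 54 higher, and on chromosome 21, 48 of 146 (32.9%) were lower and 19 higher. The median difference was 0.15 with DMSO and 0.09 with siControl on chromosome 13, and 0.17 and 0.05 on chromosome 22. It was −0.13 and −0.20 on chromosome 4, and −0.14 and −0.17 on chromosome 21. Within windows of 25 neighbouring tested genes the median line difference lay between −0.23 and 0.23 in the central 90% of 13196 windows. The highest was on chromosome 13 from TNFRSF19 to POLR1D, with a median of 0.86 and 19 genes higher and none lower. The median of the same genes was 0.81 with EPZ6438, 0.75 with siControl and 0.65 with siEZH2. On chromosome 3 from HLTF to SSR3 the median was 0.59, with 15 genes higher and 2 lower, and 0.55 with siControl. From HIC2 to SMARCB1 on chromosome 22 it was 0.45, with 14 genes higher and none lower, and 0.07 with siControl. The lowest was on chromosome 6 from CLDN20 to QKI, with a median of −0.64 and 15 genes lower and 1 higher, and −0.33 with siControl. On chromosome 4 from TMPRSS11A to CXCL8, a stretch that holds the UGT2B genes, 15 were lower and none higher (median −0.47), against −0.17 with siControl. Windows overlap and neighbouring genes are not independent, so these are descriptions without a test, and copy number was not measured.

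The line difference was measured again in other cultures, on arrays that share no sample with these. Of the 2739 genes higher in C4-2B with DMSO, 1272 were also higher with siControl (46.4% of the DMSO genes and 40.9% of the siControl genes) and 401 were called lower. Of the 2754 lower genes, 1440 were also lower with siControl (52.3% and 42.9%) and 411 were called higher. With EPZ6438 the shares were 63.2% of the DMSO genes and 67.5% of the EPZ6438 genes for increases, and 65.8% and 70.8% for decreases, and 32 and 22 genes were called in the opposite direction. In all 4 cultures 891 genes were higher and 1007 lower. Tested directly, the line difference depended on the culture at 4705 genes (34.1%) between DMSO and siControl, 2519 more positive and 2186 more negative with DMSO, and at 920 genes (6.67%) between DMSO and EPZ6438, 473 and 447. With median centring these counts were 1315, 564 more positive and 751 more negative, and 35. Among the differences most positive in DMSO against siControl were CBLN2 (4.78 with DMSO and −0.08 with siControl), S100P, a calcium-binding protein (1.88 and −2.08), and NUPR1 (1.96 and −1.98). Among the most negative were TXNIP and LCN2, an iron-siderophore carrier (−2.12 and 2.02). Other genes at the ends of the DMSO comparison had line differences in the other cultures as follows, namely RPS4Y1 (−7.77 with EPZ6438 and −7.55 with siControl), MT1G (−4.26 and −3.94), SOHLH2 (3.98 and 4.30) and PHLDA1 (4.96 and 4.41).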

How the data were processed

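Total RNA was isolated with a spin-column kit, labelled with biotin and hybridised to arrays at a core facility, per the labels' protocols. The authors deposited linear intensity values before any normalisation, each with a detection p-value, and a second intensity table that they had processed. The submitters' processing notes name GenomeStudio. From the unprocessed intensity values of the authors, neqc (limma 3.58.1, R 4.3.3) removed background estimated through the detection p-value, added 16, applied quantile normalization and took log2, and the added constant compresses differences of dim probes. Of 47311 probes, 30108 carry a single gene in the annotation; 26278 were detected and kept, 18826 with a single gene. The brightest kept probe stood for a gene, and 3852 genes had others, which shared its sign in 85% of 2326 cases at called genes. A mean for every group was fitted (24 arrays, lmFit and eBayes, 16 residual and 7.43 prior degrees of freedom) with Benjamini-Hochberg adjustment, and the fit was tested on simulated data.

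The members, the 35 lists and the tests were chosen with earlier results of these data known. The naming rule took the 15 largest called increases and decreases without overlap, at most 4 called members per list, or 2 members if there were none, and the 5 highest and 5 lowest of the DMSO minus siControl contrast. Other genes were chosen after their values were seen. Genes with no probe of their own in the annotation were not analysed here. Alternatives changed the arrays fitted, the replicate block, the normalization, the background correction, the filter, the probe rule, the source table and each array in turn.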

Additional observations from a re-analysis of the deposited data

Results flagged for a closer look

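At 26 of the 155 named genes the lines were called in opposite directions with DMSO and with siControl, and the limma contrast of the line differences passed the test at each. The line difference was more positive with DMSO, by the log2 amounts in brackets, at S100P (3.96), NUPR1 (3.95), SLC6A9 (3.83), SLC7A11 (2.98), TRIB3 (2.97), ACSL1 (2.53), SESN2 (2.35), KRT19 (2.23), PHF1 (1.69), GCLC (1.58) and IDH1 (1.16). It was more negative with DMSO at RPS7 (−0.88), CCNA2 (−1.45), MAD2L1 (−1.46), MTF2 (−1.62), NUSAP1 (−1.95), UHRF1 (−1.97), STMN1 (−2.15), PCNA (−2.15), CA12 (−2.64), GINS2 (−3.02), MCM4 (−3.26), LCN2 (−4.14), WLS (−4.67), CCL8 (−4.82) and CCL20 (−7.96). NUPR1, SLC7A11, TRIB3 and SESN2 of these are genes of the integrated stress response, and GINS2, MCM4, PCNA, CCNA2, MAD2L1 and NUSAP1 of replication and mitosis. In all, 99 of the 155 named genes passed that contrast. Treatment and any other difference between the DMSO and siControl cultures cannot be told apart.

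Probes with no single gene in the annotation entered none of the comparisons of genes. Of 7452 such probes that were detected, 1263 (16.9%) differed between C4-2B and LNCaP with DMSO, 656 higher and 607 lower in C4-2B. They cannot be named here.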

How the results depend on the processing

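The count of genes differing between the lines with DMSO stayed within 1.5 times of 5493 under every alternative run but median centring, which gave 2195, of which 2189 were also called with quantile normalization. Leaving out 1 array at a time gave 4754 to 5299 genes. For the DMSO minus siControl contrast (4705 genes) median centring gave 1315, and leaving out 1 array gave 4220 to 4760. For the DMSO minus EPZ6438 contrast (920 genes) the fit of its own arrays gave 481, median centring 35 and centring on detected probes 459, and leaving out 1 array gave 695 to 1199; the causes were not tested. The deviations of same-numbered arrays of the lines correlated at −0.0355, 0.0887 and 0.00659. Differently numbered arrays gave −0.108 to 0.0775. So few and small values cannot settle whether the numbers pair the arrays. With the replicate number as a block 5530, 4770 and 954 genes passed. Of the values of named genes, 75 lost their call under an alternative, 1 gained one and none reversed. Most losses were at dim or near-threshold genes such as MSX2, CD68, CD79A, RPS7, BMP6 and HOXD13. Of the counts of list members called higher or lower, 83 moved by more than 1.5 times under an alternative and 967 did not; most of those with median centring are given beside the lists. With median centring all genes had a median difference of −0.0741. Centring on detected probes gave 0.0908, and quantile normalization −0.00413. Leaving out siControl and EPZ6438 arrays was added after seeing the data. The files name no slide, so a slide block was not run. With 3 arrays per line and dim probes near the detection level, small differences are limited by signal over background.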
